A study of Mus musculus with 2 samples.

Results

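The 6 Dlx genes Dlx1 to Dlx6 and the antisense genes Dlx1as and Dlx6os1 were followed in RNA from the mouse embryonic face. The members were taken by symbol: 8 symbols, carried by 9 gene identifiers with 24 transcripts, of 43346 Ensembl genes quantified (42462 with a symbol). RNA longer than 200 nt was extracted with the mirVana kit from the facial prominences of B6NCrl embryos at embryonic day 10.5, and 10 ng of it went into each library, with spike-in RNA added. The study held 1 group of 2 samples, both of healthy embryos of 1 strain and 1 stage. Replicate 1 pooled tissue of 69 embryos and replicate 2 tissue of 51 embryos, male and female together. The pooled tissue was not divided into upper and lower jaw or into cell types, so in these bulk samples fewer cells that express a gene and less RNA per cell cannot be told apart. Expected counts over genes came to 40059176 in replicate 1 and 39531700 in replicate 2.

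Dlx genes encode homeodomain transcription factors related to the fly gene Distal-less, and they lie in linked pairs whose members are transcribed towards each other and share enhancers. In the pharyngeal arches they are expressed in nested domains: Dlx1 and Dlx2 reach through the upper and lower jaw tissue, Dlx5 and Dlx6 are restricted to the lower jaw side, and Dlx3 and Dlx4 lie more distally still. Endothelin 1, acting through its receptor Ednra, induces Dlx5 and Dlx6 there, and loss of both gives the lower jaw an upper jaw identity. Dlx6os1, also called Evf2, is a long noncoding RNA known from the ventral forebrain, where it binds DLX protein and acts on the genes of its own locus. Dlx1as is transcribed from the strand opposite Dlx1.

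All 8 members were detected, that is, at a TPM (a level adjusted for transcript length and scaled to a fixed sum per library) of at least 1 in both pools. The same held for 33.2% of named genes, 58.2% of protein coding genes and 13% of antisense genes. Every level below is a TPM unless a count is named. Dlx5 was highest, at 77.51 in replicate 1 and 62.76 in replicate 2, a mean of 70.1 ± 10.4 (SD, n = 2 pools). It stood above 80.6% of the detected protein coding genes. Dlx1 followed with 58.74 and 38.56 (48.7 ± 14.3), and its pools were the furthest apart of the Dlx genes. Dlx2 had 32.39 and 27.83 (30.1 ± 3.22), and Dlx3 had 26.42 and 24.92 (25.7 ± 1.06). As a ratio, Dlx3 was the closest between the pools, at 1.06-fold. The lowest Dlx genes were Dlx6, with 4.97 and 4.08 (4.53 ± 0.629), and Dlx4, with 3.64 and 3.04 (3.34 ± 0.424), which stood above only 17.7% and 13.1% of the detected protein coding genes.

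The antisense genes lay between these groups. Dlx1as had 16.54 in replicate 1 and 10.12 in replicate 2 (13.3 ± 4.54), and Dlx6os1 had 11.14 and 7.60 (9.37 ± 2.50). All 8 members were lower in replicate 2. The authors deposited bounds with each TPM, at a level not stated. Those bounds did not overlap between the pools for Dlx1, Dlx2, Dlx5, Dlx1as and Dlx6os1, and overlapped for Dlx3, Dlx4 and Dlx6. The share of all genes without overlap is not given here, so this is not shown to be particular to the members. A further short gene that also carries the symbol Dlx6os1 (ENSMUSG00000098326, a miscellaneous RNA of 146 bases inside the locus) had only 4 and 1 counts and was not detected, and it was kept apart. The spread of the values beyond these pools is unknown, and with 2 pools of 1 group no test of a condition was possible.

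**Figure D1:**
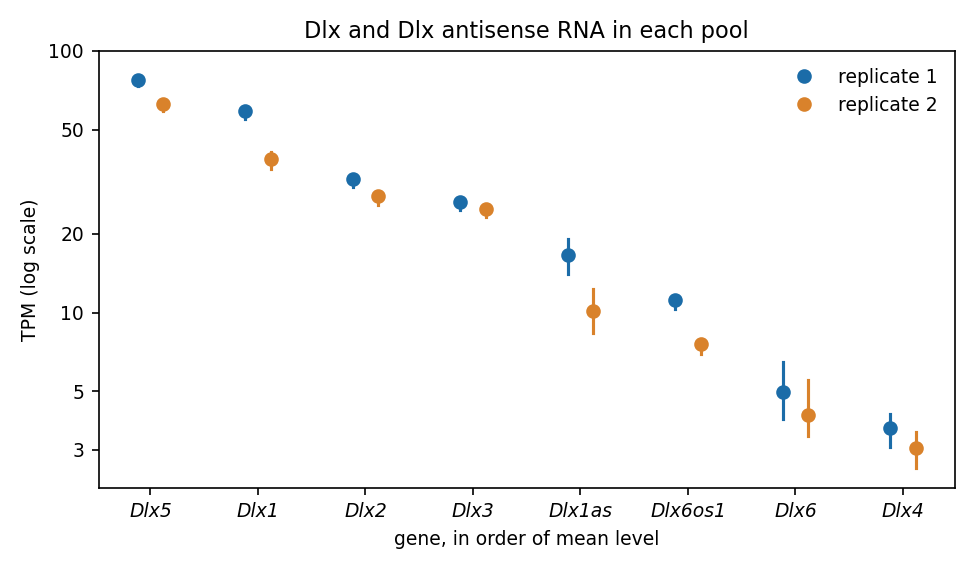
TPM (log axis) of the 8 genes in replicate 1 and replicate 2, in order of mean level, with the bounds deposited by the authors as vertical lines. Dlx5 is highest at 77.51 and 62.76, Dlx4 is lowest at 3.64 and 3.04, and every replicate 2 point lies below its replicate 1 point.

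The order of levels was read against the replicate spread of genes of like level. For each 2 genes the difference of log2(TPM + 0.1) was averaged over the pools and given a 95% interval from the replicate SD of the 200 genes nearest in level. A difference counted as beyond the spread if 0 lay outside the interval and the pools agreed in sign. The spread is borrowed from other genes, so an error of TPM particular to 1 gene is not in it. Dlx5 exceeded Dlx1 1.46-fold (interval 1.30 to 1.65), and Dlx1 exceeded Dlx2 1.58-fold (1.40 to 1.79). The log2 ratios of Dlx1 over Dlx2 in the pools, 0.86 and 0.47, both lay outside that interval (0.49 to 0.84 in log2). The pools thus differed more for this pair than the borrowed spread allows for, and its interval is likely too narrow. Dlx2 over Dlx3 was at the edge of the spread at 1.17-fold (1.004 to 1.36), and its interval reached 0 on the log2 scale in either pool alone. Dlx3 exceeded Dlx1as 1.98-fold (1.59 to 2.45), and Dlx1as exceeded Dlx6os1 1.40-fold (1.07 to 1.83), a difference that was not beyond the spread in replicate 2 alone. Dlx6os1 exceeded Dlx6 2.02-fold (1.48 to 2.76). Dlx6 and Dlx4, the last neighbours, did not differ beyond the spread (1.34-fold, 0.901 to 2.00).

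In each linked pair 1 gene exceeded the other beyond the replicate spread, by ratios from 1.58 for Dlx1 over Dlx2 to 15.2 for Dlx5 over Dlx6. The pairs are convergent: Dlx1 (chr2:71528113-71533981, plus strand) and Dlx2 (chr2:71543408-71546754, minus strand) are 9426 bases apart on GRCm38, the assembly also called mm10. Dlx3 (chr11:95120119-95125296, plus) and Dlx4 (chr11:95140447-95146263, minus) are 15150 bases apart. Dlx6 (chr6:6863334-6868568, plus) and Dlx5 (chr6:6877805-6882085, minus) are 9236 bases apart. Dlx5 exceeded Dlx6 15.2-fold (11.8 to 19.4), with log2 ratios of 3.94 in replicate 1 and 3.91 in replicate 2. Dlx3 exceeded Dlx4 7.52-fold (5.31 to 10.6), with log2 ratios of 2.83 and 2.99. Dlx1 exceeded Dlx2 by the least, with log2 ratios of 0.86 and 0.47. With protein coding transcripts alone this last pair turned round, and Dlx2 was 3.35-fold above Dlx1 (2.68 to 4.18). The other pairs kept their direction, at 11.0-fold for Dlx3 over Dlx4 and 19.4-fold for Dlx5 over Dlx6. Of the 12 pairs of unlinked Dlx genes, 11 differed beyond the spread over all transcripts, and the exception was Dlx4 and Dlx6. Dlx5 over Dlx4 was the widest at 20.4-fold. The share of other gene pairs beyond the spread is not given here. The counts of linked and unlinked pairs are thus not shown to be particular to Dlx genes.

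**Figure D2:**
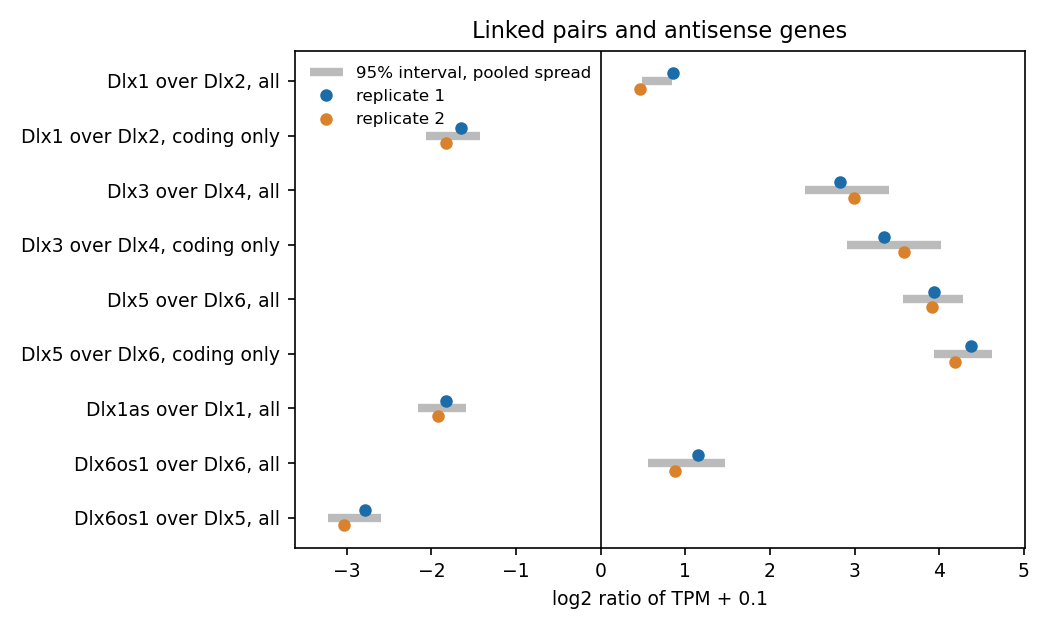
Log2 ratio of TPM + 0.1 for the linked pairs, over all transcripts and over protein coding transcripts only, and for the antisense genes against their neighbours. Points are replicates 1 and 2 and grey bars are the 95% intervals. Dlx1 over Dlx2 lies at 0.86 and 0.47 over all transcripts and at -1.65 and -1.83 over coding transcripts.

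The 6 Dlx genes summed to 203.67 in replicate 1 and 161.19 in replicate 2. Dlx1 and Dlx2 held 43.0% ± 2.51 of that sum (SD, n = 2 pools), Dlx5 and Dlx6 held 41.0% ± 0.686, and Dlx3 and Dlx4 held 16.1% ± 1.83. Over protein coding transcripts alone the shares were 25.8% ± 0.146, 53.7% ± 1.49 and 20.5% ± 1.35. Dlx5 alone then held 51.1%, and Dlx1 only 5.91%. The place of Dlx1 among the Dlx genes therefore depended on which of its transcripts were counted.

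Most of the Dlx1 level was assigned to transcripts annotated with a retained intron, a class that has no coding sequence. Dlx1-203 had 25.63 in replicate 1 and 16.15 in replicate 2, or 43.6% and 41.9% of the gene. Dlx1-206 had 23.95 and 12.46, or 40.8% and 32.3%. The full-length coding transcript Dlx1-201 had 6.33 and 5.46, or 10.8% and 14.2%. Retained intron transcripts together held 84.4% of Dlx1 in replicate 1 and 74.2% in replicate 2. For Dlx2, its linked partner, they held 10.5% and 8.36%, and the median gene held 8.76% and 8.75%. Among the 4408 protein coding genes with such a transcript and a mean TPM of at least 5, a retained intron transcript led in both pools in 5.01%, and such transcripts held at least 70% in both pools in 1.38%. Dlx1 was in both sets. It was singled out after these values were seen.

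The sequences at the intron borders show what sets these transcripts apart. Intron 2 of Dlx1 (chr2:71531157-71532263, 1107 bases) interrupts the homeobox, the part that encodes the DNA-binding homeodomain. Dlx1-201 joins exon 2 to exon 3, which encodes the rest of the homeodomain, whereas Dlx1-203 reads on into intron 2 and through it. In the first line below, capitals mark exon 3, and in the other lines they mark intron 2, with its GT start and AG end. The start of intron 2 is shown at chr2:71531132-71531181 and its end at chr2:71532239-71532288, both on the plus strand of GRCm38.
Dlx1-201 exon 2 to exon 3: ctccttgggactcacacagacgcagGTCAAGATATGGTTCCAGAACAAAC
Dlx1-203 exon 2 into intron 2: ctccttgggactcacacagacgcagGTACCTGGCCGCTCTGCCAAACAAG
Dlx1-203 intron 2 into exon 3: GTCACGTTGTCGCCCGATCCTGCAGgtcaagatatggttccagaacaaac

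Dlx1-206 instead starts inside intron 1, keeps its last 177 bases, and joins exon 2 to exon 3. Capitals mark exon 1 in the first line and intron 1 in the second, which is chr2:71530932-71530981, plus strand.
Dlx1-201 exon 1 to exon 2: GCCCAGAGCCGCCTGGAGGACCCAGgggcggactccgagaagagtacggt
Dlx1-206 intron 1 into exon 2: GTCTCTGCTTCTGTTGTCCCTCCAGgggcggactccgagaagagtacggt

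These transcripts overlap widely, which bears on how reads are divided among them. Dlx1-203 shares 2277 bases with Dlx1-201, and Dlx1-201 has 1834 bases before the start of Dlx1-203. RefSeq places the start of Dlx1 1332 bases after that of Dlx1-201 and 502 bases before that of Dlx1-203. Coverage along the gene was not used here, and the part of the annotated start in these shares was not tested. The remaining transcripts were minor. Dlx1-204, of the nonsense-mediated decay class, was at 0 in replicate 1 and 2.84 in replicate 2 (7.38%), and Dlx1-202 and Dlx1-205 stayed under 5% in both pools.

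**Figure D3:**
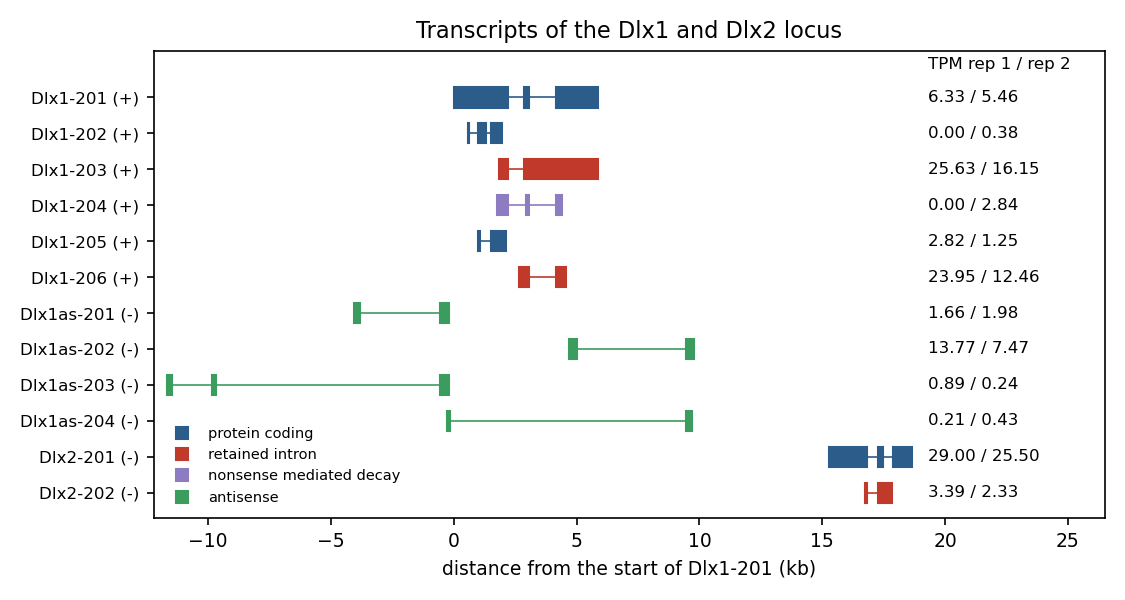
Exons (boxes) and introns (lines) of the Dlx1, Dlx1as and Dlx2 transcripts by distance in kb from the start of Dlx1-201, coloured by annotated class, with strand at the left and TPM in replicates 1 and 2 at the right. The retained intron transcripts Dlx1-203 (25.63 and 16.15) and Dlx1-206 (23.95 and 12.46) exceed Dlx1-201 (6.33 and 5.46), and an exon of Dlx1as-202 lies within the last exon of Dlx1-201.

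The other Dlx genes were led by coding transcripts in both pools. Dlx2-201 held 89.5% and 91.6% of Dlx2, and the retained intron transcript Dlx2-202 the rest. Dlx3 had 1 transcript. Dlx4-201 held 69.1% and 65.5% of Dlx4, and the processed transcript Dlx4-202, which has no coding sequence, held 30.9% and 34.5%. For Dlx6, Dlx6-202 led in replicate 1 with 40.8% and had 33.6% in replicate 2. Dlx6-203 had 15.8% and then led with 48.8%. The retained intron transcript Dlx6-204 had 26.9% and 17.6%, and Dlx6-201 had 16.5% and 0%. These shares rest on 155 and 133 counts for the whole gene, and Dlx6-203 changed place between the pools while Dlx6-202 stayed above Dlx6-204 and Dlx6-201.

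Dlx5-201 held 91.2% and 93.4% of Dlx5, and Dlx5-202 held 8.82% and 6.58%. The sequence below is the start of exon 2 that Dlx5-202 leaves out (82 bases, chr6:6879629-6879710, minus strand). Its capitals mark the AG that ends it, directly before the first base that Dlx5-202 keeps.
Dlx5 exon 2 start: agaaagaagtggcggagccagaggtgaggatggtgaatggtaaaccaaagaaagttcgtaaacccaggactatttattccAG
The annotated coding sequence is 867 bases in Dlx5-201 and 438 in Dlx5-202. At 6.83 in replicate 1 and 4.13 in replicate 2, Dlx5-202 alone was near the 4.97 and 4.08 of all Dlx6 transcripts together.

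**Figure D4:**
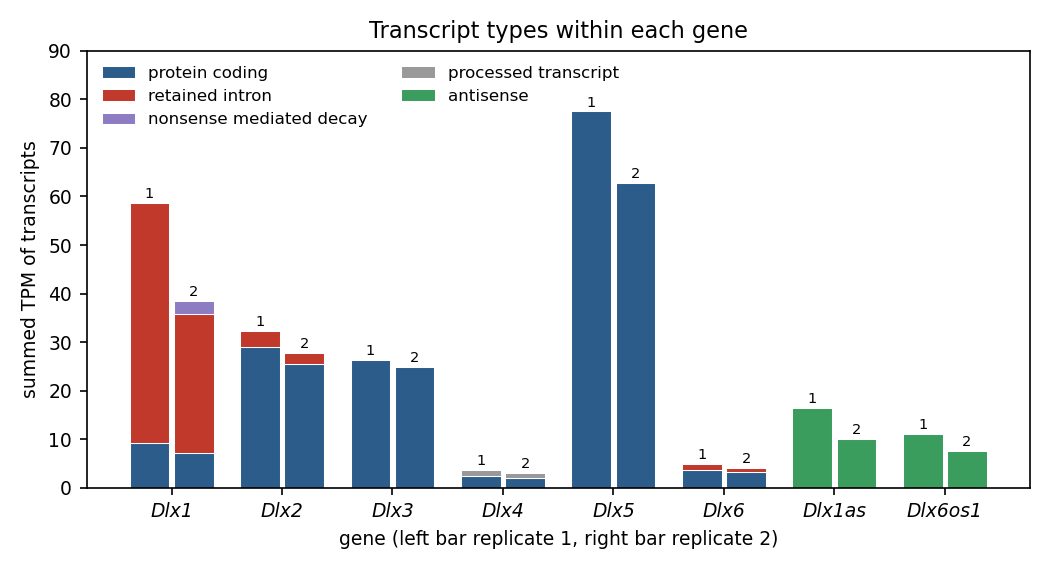
Summed TPM of the transcripts of each gene by annotated class, left bar replicate 1 and right bar replicate 2. Retained intron transcripts make up 84.4% and 74.2% of Dlx1, and coding transcripts make up nearly all of Dlx2, Dlx3 and Dlx5.

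Over all transcripts Dlx1as lay below Dlx1, and Dlx6os1 lay above Dlx6 but below Dlx5. Dlx1 exceeded Dlx1as 3.66-fold (3.01 to 4.45). Against the coding transcripts of Dlx1 alone, at 9.15 and 7.09, the direction turned, and Dlx1as was 1.60-fold higher (1.22 to 2.09). Dlx5 exceeded Dlx6os1 7.51-fold (6.04 to 9.33). By TPM Dlx1as was the higher antisense gene, but by expected count, which is not adjusted for length, the order turned. Dlx6os1 had 1255 and 847 counts and Dlx1as 239 and 143, a ratio of 5.24 in replicate 1 and 5.94 in replicate 2. Effective lengths were 4249 bases for Dlx6os1 and 546 bases for Dlx1as in replicate 1.

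Dlx1as (chr2:71516454-71537891, minus strand) was mostly Dlx1as-202, with 83.3% and 73.8%, followed by Dlx1as-201 with 10.1% and 19.5%, and Dlx1as-203 with 5.39% and 2.40%. The remaining transcript stayed under 5%. An exon of Dlx1as-202 lies within the last exon of Dlx1, and the genes share 335 exon bases. Their expected counts were not whole numbers (3397.62 and 239.38 in replicate 1, 2288.33 and 142.67 in replicate 2), yet they added up to whole numbers, 3637 and 2431, in both pools. Among 1369 opposite-strand gene pairs sharing at least 100 exon bases, 1009 had counts that were not whole for both genes, and in 64.7% of these the sum was whole within 0.02 in both pools. Reads in such overlaps were thus divided between the strands by the authors' estimate, and reads of Dlx1 and Dlx1as in the shared exon cannot be told apart. Dlx1as received 6.58% and 5.87% of the joint count.

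Dlx6os1 (chr6:6820189-6871592, minus strand) shared no exon base with Dlx6 or Dlx5, although Dlx6 lies within its span. Its level was split between Dlx6os1-201, with 49.5% and 58.5%, and Dlx6os1-202, with 50.5% and 41.5%, so neither led in both pools. RefSeq lists promoters for this gene at positions other than the start of Dlx6os1-201, and the one nearer to Dlx6os1-202 begins transcription 92 bases before it. They are shown here because the transcripts of this RNA differ in their starts, and because TAATTA is a core that homeodomain proteins bind. The windows run from 250 bases before the start to 50 after it, on the minus strand of GRCm38, chr6:6869484-6869783 first and chr6:6861634-6861933 second. Capitals mark TAATTA, which reads the same on both strands, and TATAAA or its reverse complement TTTATA.
Dlx6os1 upstream start: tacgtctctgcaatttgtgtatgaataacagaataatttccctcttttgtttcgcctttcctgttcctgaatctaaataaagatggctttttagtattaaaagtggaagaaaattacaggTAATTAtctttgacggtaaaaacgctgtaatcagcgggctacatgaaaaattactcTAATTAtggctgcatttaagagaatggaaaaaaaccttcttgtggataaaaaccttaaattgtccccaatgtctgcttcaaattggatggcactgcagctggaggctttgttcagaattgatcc
Dlx6os1 start near Dlx6os1-202: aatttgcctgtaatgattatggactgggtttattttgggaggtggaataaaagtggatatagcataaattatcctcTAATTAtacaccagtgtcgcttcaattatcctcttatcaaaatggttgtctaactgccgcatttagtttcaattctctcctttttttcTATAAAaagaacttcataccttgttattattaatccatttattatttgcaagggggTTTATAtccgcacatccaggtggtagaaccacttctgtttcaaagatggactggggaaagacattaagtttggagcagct
The first window holds TAATTA 2 times and TATAAA 0 times, and the second holds TAATTA 1 time and TATAAA 2 times, counted on both strands. TAATTA occurs in 5.29% of the 32851 RefSeq promoter windows, 2 or more copies occur in 0.490%, and TATAAA occurs in 13.6%. The windows have 35.7% and 35.3% G and C, against a median of 52.7% over all windows. The windows of Dlx1 and Dlx2 hold neither motif and have 69.3% and 66.3%. These matches are descriptions of letters, and no binding was measured.

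The nearest protein coding genes around each pair are no Dlx relatives. On the left of Dlx1, Metap1d, a mitochondrial methionine aminopeptidase that also overlaps Dlx1as, had 24.7 ± 0.453 (SD, n = 2 pools). On the right of Dlx2, Itga6, an integrin of epithelial attachment, had 28.3 ± 0.0849. Dlx3 and Dlx4 lie between the integrin gene Itga3, at 9.92 ± 0.354, and the tachykinin gene Tac4, which had 0 and 4 counts. Dlx5 and Dlx6 lie between Sem1, which encodes a proteasome subunit and was far above any Dlx gene at 235.6 ± 5.13, and Sdhaf3, an assembly factor of succinate dehydrogenase, at 5.95 ± 0.537. Dlx4os, an antisense gene that shares 79 exon bases with Dlx4, had 6.65 and 4.68, above Dlx4 in both pools. Dlx6os2, within Dlx6, had 14 and 6 counts, and the short genes Gm27699 and Gm27905 within Dlx6os1 had 0. Gm44094, also within Dlx6os1, was not analysed here.

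The pools were then set against each other, as a description of 1 library against 1. After scaling by TMM, a method that matches the bulk of genes, the log2 ratio of replicate 2 over replicate 1 was negative for all 8 members, where 48% of the 14035 named genes that averaged 50 counts or more were lower in replicate 2. The members' median was -0.26, against 0.0065 over those genes. By scaled counts only Dlx1as was at least 1.5-fold apart, with 236 and 145 (1.62-fold higher in replicate 1). Among all tested genes, 2.65% were at least 1.5-fold higher in replicate 1. Reads in the exon that Dlx1as shares with Dlx1 were divided by estimate, so the Dlx1as value is not independent of Dlx1. Dlx1 (3352 and 2319 scaled counts) and Dlx6os1 (1238 and 858) were each 1.44-fold higher in replicate 1, and Dlx5 was 1.21-fold higher. By TPM, Dlx1 was past the limit too, at 1.52-fold. The log2 ratios of Dlx4, Dlx6, Dlx2 and Dlx3 were -0.24, -0.18, -0.16 and -0.05. Scaled to spike-in totals, the median of all genes moved to -0.21, and Dlx1, Dlx6os1 and Dlx1as were then past 1.5-fold, beside 6.25% of tested genes.

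Within Dlx1 the difference lay mostly in the retained intron transcripts. They summed to 49.58 in replicate 1 and 28.61 in replicate 2, 1.73-fold apart. Without them, Dlx1 had 9.15 and 9.93, so the direction was not kept. The 2.84 of Dlx1-204 in replicate 2 made that change, since coding transcripts alone had 9.15 and 7.09. The retained intron transcripts of all genes summed to nearly the same in both pools, 1.02-fold apart, and the 192 antisense genes with enough counts had a median of 1.01-fold. Dlx4os, like the other antisense neighbours, was higher in replicate 1, by 1.39-fold.

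**Figure D5:**
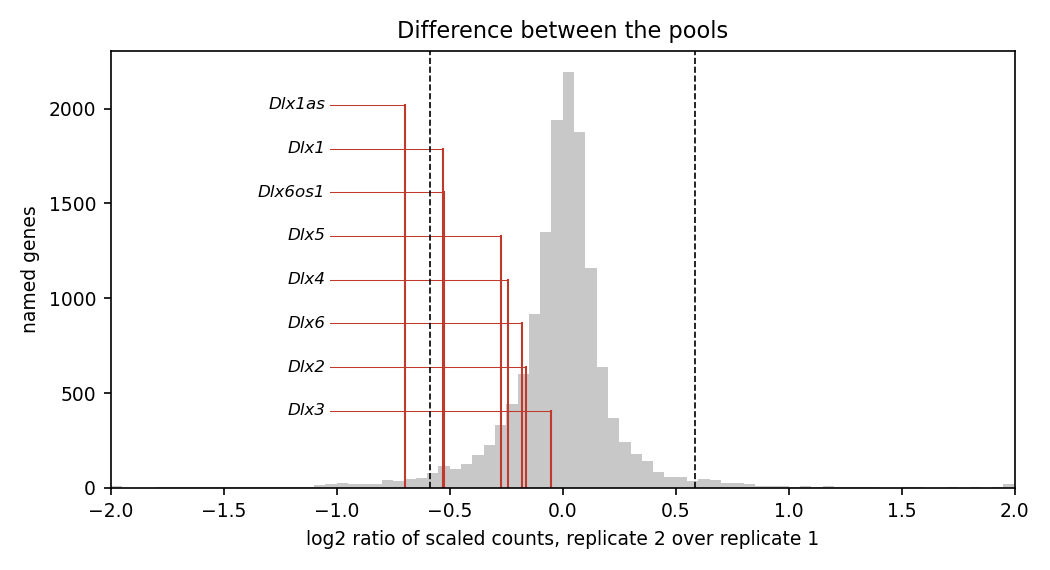
Distribution over 14035 named genes of the log2 ratio of TMM-scaled counts, replicate 2 over replicate 1, with the 8 members as red lines and 1.5-fold as dashed lines. The outermost bars also hold the genes beyond the axis. All 8 members lie below 0, and only Dlx1as, at -0.70, lies beyond the dashed line.

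Genes of the Dlx pathway were widely detected, but all gene lists here and below were written with earlier results of these data known. All 18 listed signals and receptors that act upstream of Dlx genes were detected, beside 58.2% of protein coding genes. Their median was 27.7, against 20.1 over detected protein coding genes. The highest were Fgfr2, a receptor for fibroblast growth factors, at 67.3 ± 1.45 (SD, n = 2 pools), Gna11, a G protein subunit that carries endothelin signals, at 67.0 ± 0.170, and Fgfr1 at 56.1 ± 5.92. The lowest was Edn1, which encodes the endothelin 1 ligand itself, at 1.41 ± 0.127. None was 1.5-fold apart between the pools.

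All 12 listed genes of the lower jaw program, which includes targets of Dlx5 and Dlx6, were detected, with a median of 27.3. Tbx3 had 44.9 ± 2.53, Barx1 42.6 ± 8.88 and Msx2 41.5 ± 9.34, all transcription factors of the arches, and Hand2, a factor of the distal arch, was lowest at 4.10 ± 0.990. Of these, 2 were past 1.5-fold between the pools, in opposite directions, beside 4.64% of all tested genes in either direction (1.99% higher in replicate 2). Gsc, the homeobox gene goosecoid, had 17.27 in replicate 1 and 9.84 in replicate 2. Hand1, a factor of the distal midline of the arches, had 18.05 and 41.81. All 9 upper jaw genes found of 10 listed were detected, with a median of 35.3, and none was 1.5-fold apart. Meis2, Nr2f2 and Lhx8 were highest, at 58.4 ± 2.43, 53.9 ± 4.17 and 51.6 ± 2.74, and Foxl2 was lowest at 1.26 ± 0.134. The listed partners of Dlx proteins and of Dlx6os1 RNA were detected in 12 of 12 cases, with a median of 79.4 and none past 1.5-fold. The highest was Hmgb1, an abundant chromatin protein, at 1354 ± 110.7. Maged1 had 587 ± 8.18 and Msx1, a homeodomain partner that is also a mesenchyme marker, had 292 ± 15.1.

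The labelled tissue was checked against its cell types. Mesenchyme markers were detected in 9 of 9 cases (median 45.8), led by Msx1, Prrx1 at 107 ± 1.08 and Sox9 at 92.5 ± 3.18, with Meox1 lowest at 2.04 ± 0.594. Surface ectoderm markers were detected in 8 of 9 cases (median 25.8), led by the keratins Krt18 and Krt8 at 84.7 ± 3.08 and 81.5 ± 3.02 and by Cldn6 at 62.9 ± 1.47. The lowest and undetected member, the basal keratin Krt5, had 4.62 and 0.98, or 4.49-fold more in replicate 1 after scaling. Olfactory placode markers were detected in 8 of 8 cases (median 16.6), among them Eya1 at 41.4 ± 1.06 and Eya2 at 34.1 ± 2.21. They summed to 170.43 in replicate 1 and 157.08 in replicate 2, and 7 of the 8 had lower scaled counts in replicate 2. The mesenchyme markers summed to 723.29 and 718.42, and 6 of the 9 had lower scaled counts in replicate 2, beside 48% of all tested genes. Markers of the cranial ganglia (6 of 6, from Neurog1 at 11.4 ± 2.53 to Tubb3 at 190.4 ± 2.65, with Elavl4 at 71.3 ± 5.87 and Stmn2 at 55.1 ± 1.84), endothelium (4 of 4, Emcn, Kdr, Pecam1 and Cdh5 between 13.0 and 21.9) and blood (3 of 3, with the embryonic globin Hbb-y at 5398 ± 617, Hba-x at 2196 ± 189 and Gata1 at 4.56 ± 0.177) were detected too, with none past 1.5-fold.

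Markers were also listed for the ventral forebrain, where Dlx1, Dlx2, Dlx5, Dlx6 and Dlx6os1 are expressed too. They were detected in 7 of 11 cases with a median of 2.12, and Gsx2, Gad1, Sp9 and Slc32a1 were undetected. Some of the detected ones are shared with other tissues, so they do not show whether forebrain tissue was in the pools. Isl1, a factor that the cranial ganglia also express, had 45.5 ± 5.90, Lhx6, which is also a jaw mesenchyme gene, had 12.4 ± 1.66, and Sp8 had 6.32 ± 0.502. Slc32a1, the vesicular GABA transporter, was lowest at 0.085 ± 0.0636. The summed level of the 11 markers was 87.66 in replicate 1 and 72.54 in replicate 2, and none was at 0 in either pool. Among them Nkx2-1, a factor of the ventral forebrain, had 7.62 and 3.66, and Gad2, a GABA-synthesizing enzyme, had 2.81 and 1.43, both about 2-fold higher in replicate 1 (2.03 and 2.02 after scaling), as the Dlx genes were higher there. Hindbrain and neural tube markers were detected in 4 of 7 cases (median 2.47) and summed to 46.43 and 69.45. Nes had 34.1 ± 6.19, Pax6 had 14.8 ± 5.40, Hoxb1 had 3.47 ± 3.45 and En2 was lowest at 0.025 ± 0.0212. Of these 7, Hoxb1, Nkx6-1 and Pax6 were past 1.5-fold, higher in replicate 2 by 5.85-fold, 4.13-fold and 1.75-fold. Over all tested genes 1.99% were at least 1.5-fold higher in replicate 2. Olig2 of the same list went the other way, 1.45-fold higher in replicate 1. The part of these other tissues in the differences between the pools was not tested.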

How the data were processed

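Total RNA was sequenced from 2 pools of facial prominence tissue at embryonic day 10.5. Expected counts per gene and transcript, not normalized, were deposited by the authors. TPM values were deposited by the authors, scaled over all features of a file, and the percent share of each transcript in its gene was deposited beside them. Bounds in TPM were deposited too. The files use mm10 and the GENCODE M4 annotation, per the notes deposited with them. The aligner, quantifier, their versions and the strand setting are not given in the sources used here. Symbols, classes and coordinates came from GENCODE M21 on GRCm38, matched by identifier without version, and promoter windows from RefSeq on GRCm38. Spike-in RNA took 3.46% and 3.94% of the expected counts and stayed out of the gene totals.

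Mean and SD were taken over the pools. Intervals, on log2(TPM + 0.1), spanned 1.96 standard errors, taken from the pooled SD of 200 genes of like level whose mean TPM was 1 or more; 26 pairs of genes were compared, none with a p-value. Pool ratios used edgeR 4.0.16 TMM factors from rounded expected counts (DESeq2 1.42.0 size factors as an alternative), a prior count of 2, a mean count of at least 50 and a fold of 1.5. R 4.3.3, Python 3.11.15, numpy 2.4.6 and pandas 2.3.3 were used. Intervals and ratios were tested on simulated data. Alternatives were other pseudocounts, spreads, detection limits, scalings and estimates, each pool left out, and other sets of transcripts. The text names all members, transcripts with a share of at least 5% in either pool, flanking and overlapping genes, and in each of 12 gene lists the 3 highest members, the lowest and those past 1.5-fold. Results of some genes that this rule takes are not reported here. The members and lists were chosen with earlier results of these data known.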

Additional observations from a re-analysis of the deposited data

How the results depend on the processing

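With 2 pools of 1 group, the precision of every value is set by 2 samples, and low genes such as Dlx4 and Dlx6 rest on under 200 counts a pool. Of 457 recomputed values, some comparisons standing under more than 1 result, 424 kept their direction and their side of the threshold or moved by less than 1 SD. Part of these could not have come out otherwise. With 2 pools, leaving 1 out always moves a mean level or share by less than 1 SD. Another spread changes the interval of a ratio but not the ratio. The tally is therefore no measure of robustness. Counting protein coding transcripts only, an alternative chosen after seeing the data, reversed the log2 ratio of Dlx1 over Dlx2 to -1.74 and that of Dlx1 over Dlx3 to -1.66, and leaving out retained intron transcripts, also chosen after seeing the data, gave -1.50 and -1.42. The same alternatives reversed Dlx1as over Dlx1 to 0.68 and 0.44. Both brought Dlx2 over Dlx3 to 0.0835, within the spread. They moved the share of Dlx1 and Dlx2 to 25.8% and 26.4%, that of Dlx3 and Dlx4 to 20.5% and 20.9%, and that of Dlx5 and Dlx6 to 53.7% and 52.7%. These alternatives count fewer transcripts by construction. Expected counts in place of TPM reversed Dlx6os1 over Dlx1as to 2.48, as no length enters them. Leaving out each pool in turn gave 0.16 to 0.29 for Dlx2 over Dlx3, within the spread in both cases. It gave -0.57 to -0.41 for Dlx6os1 over Dlx1as (0.41 to 0.57 the other way round), within the spread without replicate 1. With posterior mean TPM, Dlx6 over Dlx4 passed the spread at 0.52; the cause was not tested. The number of members past 1.5-fold between the pools was 3 with spike-in totals and 0 at 2-fold. Hindbrain markers detected at a TPM of at least 2 numbered 2. The pool ratios have no value with a pool left out. No paired analysis was possible because there was only 1 group.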
